A study of Mus musculus with 6 samples.

Results

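Kallikrein-related peptidases are secreted serine proteases, and the genes described here are those of the epidermal group together with Spink5, which encodes their inhibitor LEKTI. The members were taken by gene name from the deposited count table: Klk5, Klk6, Klk7, Klk8, Klk10, Klk11, Klk13, Klk14 and Spink5, which are 9 of its 55401 gene rows. They were measured by RNA sequencing in E15.5 mouse back skin, in 3 control embryos and 3 Prmt5 cKO embryos, each embryo giving 1 library. Prmt5 encodes a protein arginine methyltransferase, and the study's title places its loss in the epidermis; the deposited workbook writes the mutant with the word CRECT, which the labels do not explain, and the control genotype is not in the labels used here. The skin was taken as mixed epidermis and dermis, so each library also held RNA from dermis and from what lies with it. The comparison asks how the proteases and their inhibitor stood in the skin of Prmt5 cKO embryos.

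In the epidermis, kallikreins are made as inactive precursors by keratinocytes of the upper layers, packed into lamellar granules and released between the granular layer and the cornified layer. There KLK5, in human skin the enzyme that starts the cascade, activates itself and other family members, and the active proteases cut the desmosomal proteins that hold corneocytes together, among them desmoglein 1, desmocollin 1 and corneodesmosin. LEKTI holds these proteases back, and its loss causes Netherton syndrome in people and detachment of the cornified layer in mice.

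The family shares a catalytic serine that lies in a stretch of coding sequence conserved between members. The codons of the motif around that serine (glycine, aspartate, serine, glycine, glycine, proline) were searched in frame in the coding sequence of each kallikrein member (GENCODE M21 transcripts, GRCm38, plus strand of chromosome 7). The motif was found once in each of 7 of the 8, with no match in Klk10. Those of 4 members are shown so that the enzymes whose levels are compared can be seen as related but separate transcripts, each as 54 bases read 5′ to 3′, with the codon at the serine position in capitals. Every one crosses the junction of the last 2 exons, so its genome interval includes an intron.
Klk5, exons 4 and 5 of 5, chr7:43847557-43850754: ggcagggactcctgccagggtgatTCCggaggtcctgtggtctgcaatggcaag
Klk7, exons 5 and 6 of 6, chr7:43813349-43815332: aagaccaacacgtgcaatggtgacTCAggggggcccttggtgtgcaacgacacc
Klk8, exons 4 and 5 of 5, chr7:43802196-43803649: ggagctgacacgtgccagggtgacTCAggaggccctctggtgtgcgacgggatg
Klk13, exons 5 and 6 of 6, chr7:43723874-43726586: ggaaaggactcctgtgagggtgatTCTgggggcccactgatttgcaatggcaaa
Between the coding sequences of the 8 kallikrein members, identity over the whole pairwise alignment, gaps included, ranged from 52.4% to 58.9% over 28 pairs, with a median of 55.4%. Over aligned bases alone it ranged from 62.7% to 69.0%. The longest run of bases that any pair shared was 20.

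Counts in the 6 libraries summed to between 35667634 and 66122667. Levels are given as CPM, counts relative to a library size that was scaled by TMM, a method that sets libraries to the level of their typical gene. Prmt5 measured 59.2 ± 16.6 CPM (SD, n = 3) in controls and 28.2 ± 2.17 CPM in cKO, a log2 fold change of -1.07 ± 0.19 (SE; edgeR adjusted p = 0.00292), and some Prmt5 RNA is present in the mixed tissue of every cKO library. Of all genes tested, 19.6% were called lower in cKO and 16.3% higher. The RNA of epithelial genes differed by genotype. Of 15 pan-epithelial genes, 14 fell and 1, Cldn4, did not pass (it did without control replicate 3, edgeR adjusted p = 0.0473). Their log2 fold changes were uneven, from -0.20 for Cldn4 to -2.27 for Rab25. The summed level of the 15 was 6497 to 7010 CPM in controls against 2948 to 3302 CPM in cKO. Summed CPM of 10 skeletal muscle genes was 2777 to 3903 in controls and 6584 to 6703 in cKO, and that of 10 dermal fibroblast genes was 37267 to 46929 and 56750 to 75573. All 10 muscle genes were called higher in cKO, as were 9 of the 10 fibroblast genes, while Thy1 was lower, a call lost without cKO replicate 3 (edgeR adjusted p = 0.0522). All 8 endothelial genes were called higher, but 5 without control replicate 3 or without cKO replicate 1. Calls for blood and nerve lists rested on single libraries and on the method. Among all genes, edgeR called 3139 higher with all libraries and 2460 to 2780 on leaving out 1, while DESeq2 called 3344. Of 8 erythroid genes, 0 were called in edgeR with all libraries, 1 in DESeq2 and all 8 higher without cKO replicate 1. Of 8 leukocyte genes, 2 were called higher in edgeR, 6 in DESeq2 and 1 to 5 on leaving out 1 library, namely 4 without control replicate 3, 5 without cKO replicate 2 and 1 on leaving out any of the other libraries. Of 7 neural genes tested, 1 was lower and 1 higher, with 0 higher without control replicate 2 or 3 and 2 higher without cKO replicate 1 or 2. In bulk tissue, fewer cells of a type and less RNA per cell cannot be told apart.

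Among the members, 7 had enough counts to test, and each of the 7 was lower in the cKO skin, with 0 higher. Over all 19227 genes tested, 19.6% were called lower, and 5.63% were called lower by a log2 fold change of -1 or less. Both counts use edgeR's quasi-likelihood test with a Benjamini-Hochberg adjusted p under 0.05. The median log2 fold change was -2.52 over the 7 tested members and -0.01 over all genes tested. Every control library was above every cKO library for each of the 7, a separation found for 26.6% of all genes tested, against 23.3% with every cKO library higher. Klk6 was at 0 counts in all 6 libraries, and Klk14 had 0 counts in every control and 0, 3 and 2 in the cKO libraries. Neither could be compared, and for Klk14 no fold is given because both groups lie at or under a floor of 3 counts.

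**Figure D1:**
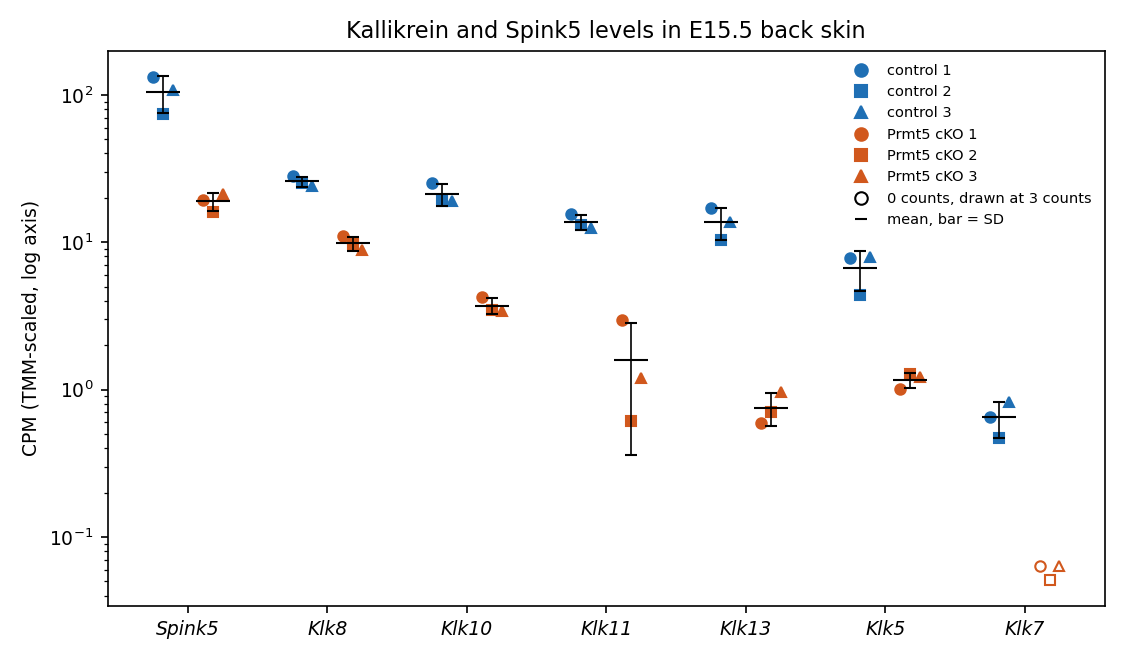
Level of the 7 tested members in each library, in TMM-scaled CPM on a log axis; points are libraries, horizontal marks are group means and bars the SD over 3 libraries. Each cKO point lies below every control point of its gene, and the open cKO symbols of Klk7 stand for 0 counts, drawn at the value of 3 counts.

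Spink5, the inhibitor (chromosome 18, 43963235 to 44022501, plus strand, GRCm38), had the highest mean level per kb of exon in control skin. It was counted 5874, 4906 and 3804 times in control replicates 1 to 3 and 912, 952 and 991 times in cKO replicates 1 to 3. In CPM this was 132.4, 74.1 and 108.3 in controls against 19.4, 16.1 and 21.1 in cKO. The groups stood well apart, with control replicate 2 lowest among the controls. Spink5 fell 5.55-fold, from 104.9 ± 29.3 to 18.9 ± 2.57 CPM (SD, n = 3), with a log2 fold change of -2.47 ± 0.20 (SE; edgeR adjusted p = 4.07e-05).

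Klk5, the protease that starts the cascade in human skin (chromosome 7, 43841971 to 43851181), was counted 344, 290 and 278 times in controls and 47, 75 and 57 times in cKO. Its CPM was 7.75, 4.38 and 7.91 in controls against 1.00, 1.27 and 1.22 in cKO. As for Spink5, control replicate 2 was the lowest control, yet it remained above all cKO libraries. Klk5 fell 5.75-fold, from 6.68 ± 2.00 to 1.16 ± 0.141 CPM (SD, n = 3), with a log2 fold change of -2.51 ± 0.26 (SE; edgeR adjusted p = 1.48e-04).

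Klk7, a chymotrypsin-like protease that cuts corneodesmosin and desmocollin 1 (chromosome 7, 43811294 to 43816359), had 29, 31 and 29 counts in the controls and 0 in each cKO library. Its control level was 0.649 ± 0.179 CPM (SD, n = 3). Against a floor of 3 counts per library, Klk7 was at least 10.9-fold lower in cKO (edgeR adjusted p = 9.89e-04), or 9.42-fold without control replicate 3. This is the one tested member with no counts in the cKO group. Klk14, a trypsin-like protease that human KLK5 can activate, and Klk6, a trypsin-like protease also known from the nervous system, were the members with too few counts to compare.

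Klk8, or neuropsin, a trypsin-like protease of the upper epidermis and the hippocampus (chromosome 7, 43797577 to 43803826), had the highest mean level per kb of exon among the kallikreins in both genotypes. Counts of 1249, 1671 and 851 in controls stood against 515, 571 and 416 in cKO. Its CPM was 28.2, 25.2 and 24.2 in controls and 11.0, 9.65 and 8.87 in cKO, so the groups were tight and did not overlap. Klk8 had the smallest fall of the tested members, 2.63-fold, with a log2 fold change of -1.40 ± 0.11 (SE; edgeR adjusted p = 2.53e-05). Of its exonic length, 24.8% (382 bases) is shared with an antisense transcript, 2310002F09Rik, which also fell, with a log2 fold change of -2.22 ± 0.22 (SE; edgeR adjusted p = 1.32e-04). Whether the counting used strand is not given in the sources used here, so reads of either transcript in that overlap cannot be told apart.

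Klk10, a family member studied in human breast tumours as a candidate suppressor (chromosome 7, 43781035 to 43785410), had a level per kb in controls that overlapped that of Klk8. It was counted 1121, 1263 and 669 times in controls and 198, 204 and 160 times in cKO. In CPM, the controls measured 25.3, 19.1 and 19.0 and the cKO libraries 4.22, 3.45 and 3.41, with little spread in either group. It fell 5.72-fold, a log2 fold change of -2.52 ± 0.15 (SE; edgeR adjusted p = 6.62e-06), which lies within 1 SE of the changes of Klk5 and Spink5.

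Klk11, a trypsin-like protease (chromosome 7, 43774604 to 43779263), varied most between cKO embryos. It had 689, 860 and 439 counts in controls and 139, 36 and 56 in cKO. Its CPM was 15.53, 13.0 and 12.5 in controls and 2.96, 0.608 and 1.19 in cKO. All cKO libraries were below the controls, but cKO replicate 1 stood well above the other cKO libraries, and the coefficient of variation was 77.2% in cKO against 11.9% in controls. Klk11 fell 8.60-fold, with a log2 fold change of -3.12 ± 0.46 (SE; edgeR adjusted p = 0.00112). On leaving out each library in turn, the log2 fold change ran from -3.94 without cKO replicate 1 (edgeR adjusted p = 8.52e-05) to -2.72 without cKO replicate 2, and the adjusted p was at most 0.00745.

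Klk13, a trypsin-like protease whose human form cuts extracellular matrix proteins in vitro (chromosome 7, 43712567 to 43727534), fell most among the members with counts in every library. It was counted 752, 681 and 483 times in controls and 28, 42 and 45 times in cKO. Its CPM was 17.0, 10.3 and 13.7 in controls against 0.597, 0.710 and 0.960 in cKO, so every cKO library was far below the lowest control. The fall was 18.1-fold, with a log2 fold change of -4.17 ± 0.25 (SE; edgeR adjusted p = 6.10e-06). The group mean was 13.7 ± 3.34 CPM for controls, with 0.756 ± 0.186 CPM for cKO (SD, n = 3).

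In the authors' deposited table from DESeq2, all 7 tested members also have an adjusted p under 0.05, from 1.49e-57 for Klk13 to 7.08e-06 for Klk11. Klk14 has no adjusted p in the authors' deposited table from DESeq2.

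To compare levels between genes, CPM was divided by exonic length, giving CPM per kb. In control skin the order was Spink5 at 21.9 ± 6.13, Klk8 at 16.8 ± 1.33, Klk10 at 15.4 ± 2.61, Klk11 at 9.32 ± 1.11, Klk13 at 5.95 ± 1.45, Klk5 at 5.002 ± 1.49 and Klk7 at 0.343 ± 0.094 CPM per kb (SD, n = 3). Libraries overlapped between the neighbours Spink5 and Klk8, Klk8 and Klk10, and Klk13 and Klk5, so their order is not resolved. In cKO skin Klk8 came first at 6.39 ± 0.692, above Spink5 at 3.95 ± 0.537 and Klk10 at 2.69 ± 0.333 CPM per kb, with no overlap between these 3. Klk11 at 1.08 ± 0.836 and Klk5 at 0.870 ± 0.105 CPM per kb overlapped, and Klk13 at 0.329 ± 0.081 CPM per kb lay below them.

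The summed kallikrein level was 60.8, 47.1 and 50.5 CPM per kb in controls and 13.2, 10.5 and 10.4 in cKO. Within that sum the make-up differed by genotype. Klk8 made up 32.0% ± 2.46 (SD, n = 3) of it in controls and 56.3% ± 3.06 in cKO, while Klk13 went from 11.2% ± 1.45 to 2.97% ± 1.02. Klk10 held 29.1% ± 1.43 in controls and 23.7% ± 0.384 in cKO, and Klk5 9.41% ± 2.39 and 7.81% ± 1.87. These shares depend on one another, since they sum to the whole, and were not tested.

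**Figure D2:**
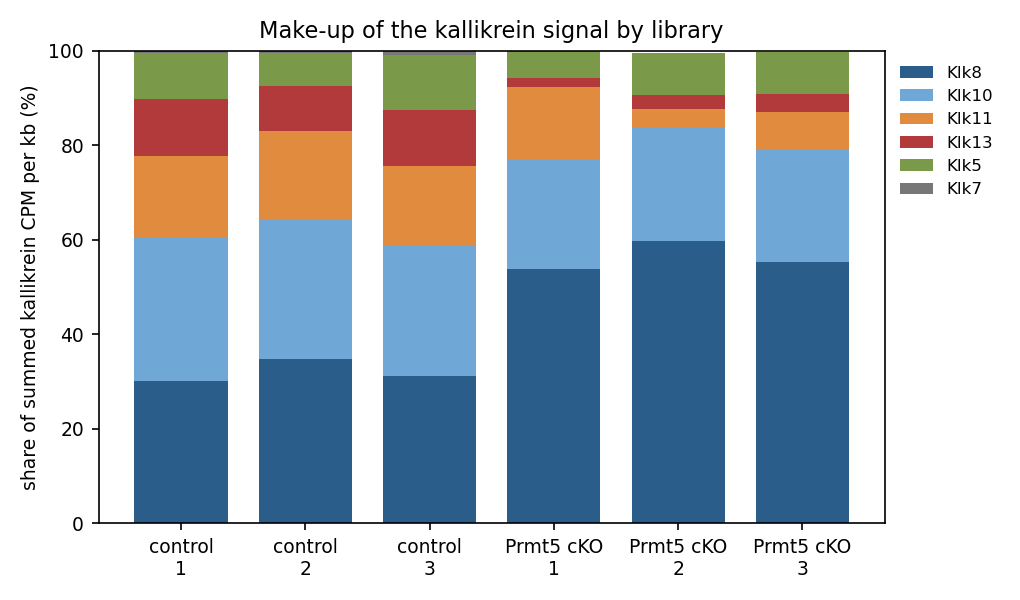
Share of each kallikrein in the summed kallikrein level per kb of exon, in percent, with 1 stacked bar per library. Klk8 fills more of each cKO bar and Klk13 less, and the Klk11 share is widest among the cKO bars in replicate 1.

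The balance of protease to inhibitor RNA was read within each library as counts per 100 Spink5 counts, a ratio that does not depend on how libraries are scaled. For Klk8 it was 21.3, 34.1 and 22.4 in controls and 56.5, 60.0 and 42.0 in cKO, so all cKO libraries were higher, by 1.04 on the log2 scale. For Klk13 it was 12.8, 13.9 and 12.7 in controls and 3.07, 4.41 and 4.54 in cKO, lower in all cKO libraries, a log2 difference of -1.71. For Klk7 it was 0.494, 0.632 and 0.762 in controls and 0 in each cKO library. Klk7 reached the required mean of 10 counts through its controls alone, at 29.7 against 0 in cKO. Its cKO log2 ratios rest on a pseudocount of 0.5, so its test adds nothing to the 0 counts themselves. Each of these 3 comparisons gave p = 0.1 in a two-sided exact permutation test, the smallest that 3 against 3 libraries allow, and p = 0.2 after Benjamini-Hochberg adjustment over the 6 proteases with the exact permutation test.

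For the other 3 proteases the ratio to Spink5 overlapped between genotypes. Klk5 stood at 5.86, 5.91 and 7.31 per 100 Spink5 counts in controls and 5.15, 7.88 and 5.75 in cKO, a log2 difference of -0.03 (exact permutation p = 0.8). Klk10 stood at 19.1, 25.7 and 17.6 in controls and 21.7, 21.4 and 16.1 in cKO, a log2 difference of -0.06 (exact permutation p = 0.9). Klk11 ranged from 11.5 to 17.5 in controls and from 3.78 to 15.2 in cKO (exact permutation p = 0.3). Summed over the kallikreins per kb, the level relative to Spink5 per kb was 2.20, 3.04 and 2.23 in controls and 3.26, 3.12 and 2.36 in cKO, again overlapping. With 3 libraries a group, these values do not show that the ratios were equal.

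**Figure D3:**
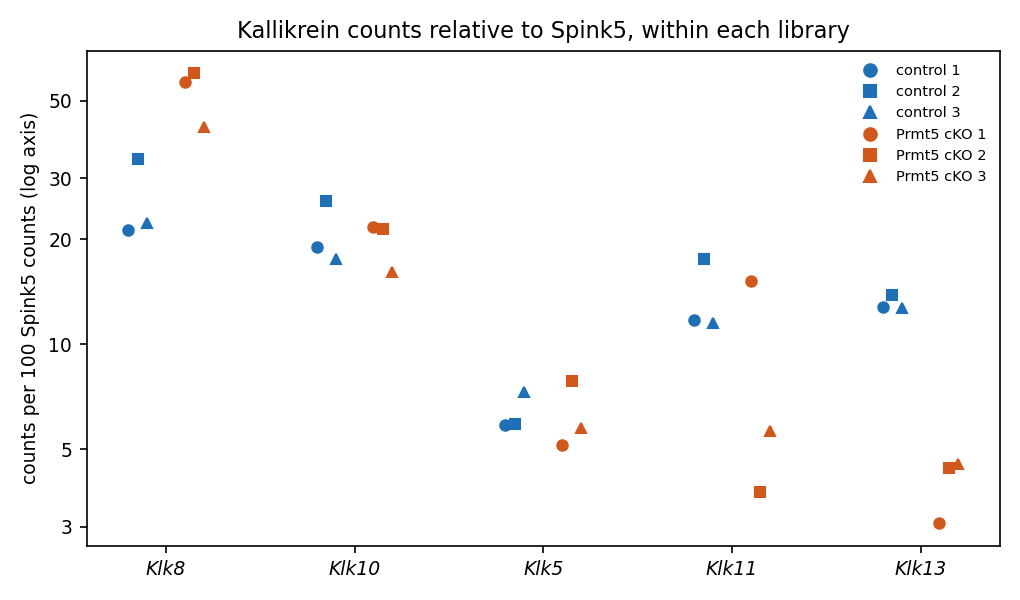
Counts of 5 kallikreins per 100 Spink5 counts in the same library, on a log axis, with 1 point per library. For Klk8 the cKO points lie above and for Klk13 below all control points, while for Klk10, Klk5 and Klk11 the groups overlap.

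Because the epithelial genes fell as a group, the members were also set against the summed counts of the 15 pan-epithelial genes of the same library. Klk8 then measured 40.2, 38.6 and 37.3 counts per 10000 pan-epithelial counts in controls and 37.2, 31.2 and 26.9 in cKO, nearly touching. Klk13 measured 24.2, 15.7 and 21.2 in controls against 2.03, 2.30 and 2.91 in cKO, which stayed far apart. Spink5 measured 188.9, 113.3 and 166.7 in controls against 66.0, 52.0 and 64.0 in cKO.

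With libraries scaled to those 15 genes in place of TMM, 6 of the 7 tested members were still called lower and Klk8 was not, at a log2 fold change of -0.28 ± 0.13 (SE; edgeR adjusted p = 0.0660). Klk13 was at -3.07 (edgeR adjusted p = 4.02e-07), Klk11 at -1.99 (edgeR adjusted p = 0.00116) and Spink5 at -1.37 (edgeR adjusted p = 1.59e-05). Klk5 at -1.41 and Klk10 at -1.40 were again close to Spink5. The scaling used the summed counts of the 15 genes, which rested most on Krt5 and Perp, at 2352 and 1298 CPM in controls. With TMM their log2 fold changes were -0.66 and -2.11, so the abundant genes of the sum did not move evenly. This scaling moved the median log2 fold change of all genes from -0.01 to 1.09, and under it 3.67% of all genes tested were called lower and 83.3% higher. Prmt5 then had a log2 fold change of 0.041 (edgeR adjusted p = 0.824), and any fall well under that shift in size, such as those of Ctsd and Thy1, has the opposite sign under it.

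**Figure D4:**
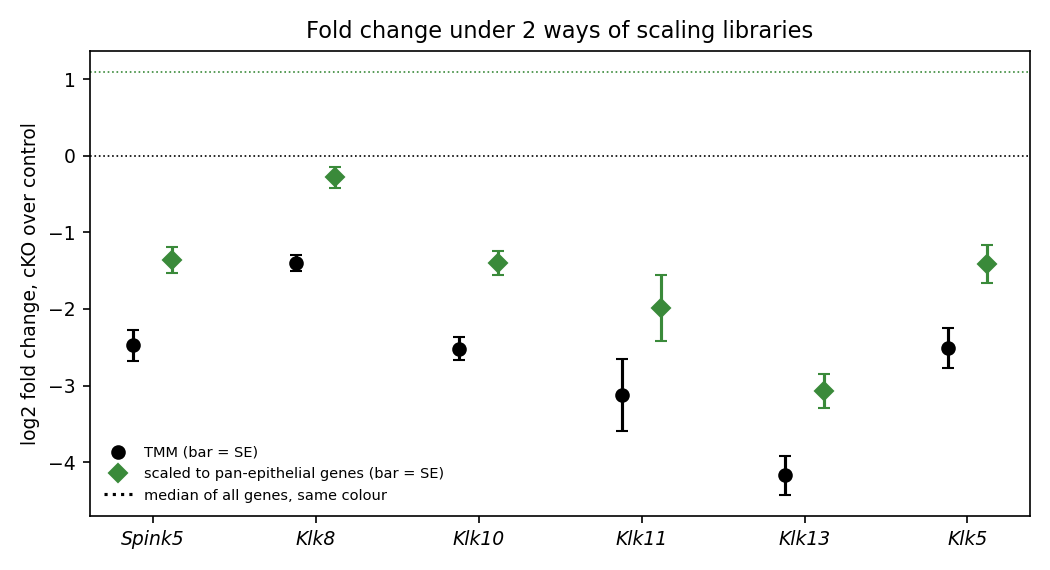
Log2 fold change, cKO over control, of 6 members with libraries scaled by TMM (black circles) or to 15 pan-epithelial genes (green diamonds); bars are SE and dotted lines the median of all genes under each scaling. Every member lies below the median line of its own scaling, and the diamond of Klk8 lies near 0; Klk7 is left out because its cKO counts are 0.

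The 8 kallikrein members lie on the plus strand of chromosome 7 within 160.8 kb (GRCm38, 43690418 to 43851181), from Klk14 through Klk13, Klk11, Klk10, Klk8, Klk7 and Klk6 to Klk5. In a window reaching 250 kb past them on each side, 8 kallikrein genes could be tested, and 7 fell. The share called lower over all genes tested was 19.6%. The 7 are the 6 members with a test and Klk9, which lies between Klk10 and Klk8. Klk9 went from 0.766 ± 0.225 to 0.115 ± 0.067 CPM, a log2 fold change of -2.72 ± 0.51 (SE; edgeR adjusted p = 0.00371). Its counts were low, at 29, 41 and 36 in controls and 9, 4 and 4 in cKO, near the floor of 3. A filter of CPM of at least 1 in 3 libraries removes Klk9. Klk1b26, a glandular kallikrein beyond Klk5, measured 1.82 ± 0.505 and 2.41 ± 0.187 CPM and did not pass (edgeR adjusted p = 0.220). Of 9 other genes tested there, 3 fell: Vsig10l with a log2 fold change of -2.65 ± 0.11, the antisense 2310002F09Rik as above, and the tRNA-thiolation gene Ctu1 at -0.61 ± 0.11 (SE). Etfb, Iglon5, Cd33, Zfp658, Zfp719 and Siglece did not pass. Spink5 is on another chromosome.

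**Figure D5:**
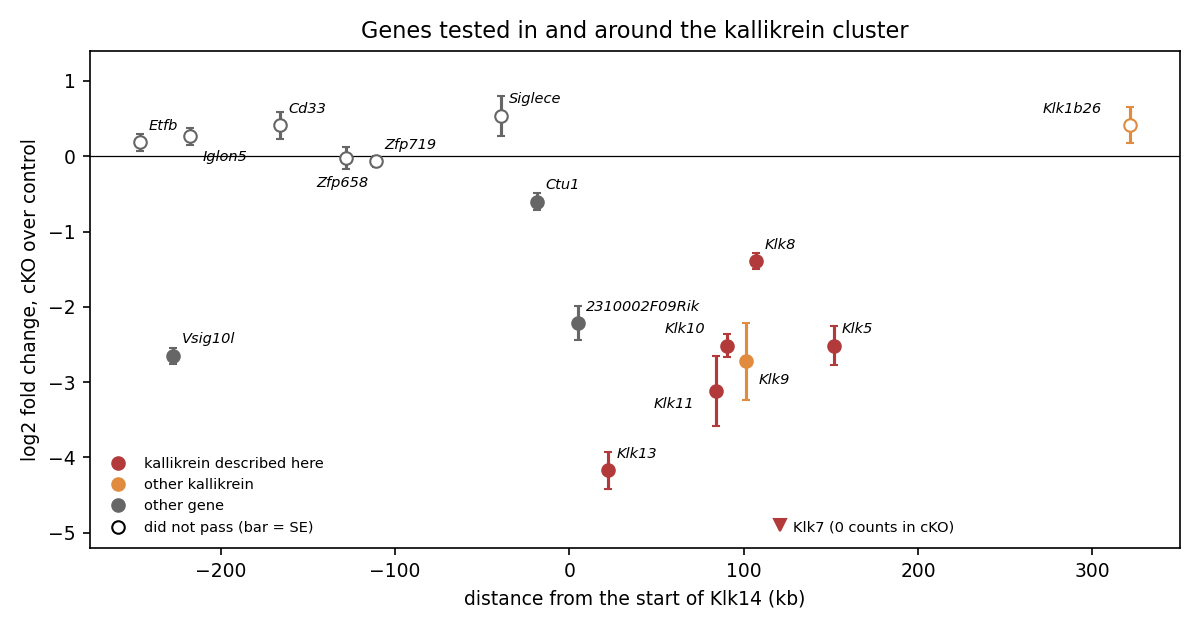
Log2 fold change, cKO over control, of the genes tested in and around the kallikrein cluster, against distance in kb from the start of Klk14; bars are SE and open circles are genes that did not pass. The kallikreins described here lie between -4.17 and -1.40, Klk1b26 lies above 0, and the triangle for Klk7 marks 0 counts in cKO and is not placed to scale.

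As the kallikrein members with a test fell together, the 250 bases before each RefSeq start of all 8 were read, giving 10 promoters on GRCm38.p6. The 10 include those of Klk6 and Klk14, for which no fall could be measured. The promoters of 3 members are shown: those of Klk13 and Klk8, with the largest and smallest fall among members with counts in every library, and that of Klk5, the one that held a searched motif. All are on the plus strand, 5′ to 3′.
Klk13, chr7:43712317-43712566: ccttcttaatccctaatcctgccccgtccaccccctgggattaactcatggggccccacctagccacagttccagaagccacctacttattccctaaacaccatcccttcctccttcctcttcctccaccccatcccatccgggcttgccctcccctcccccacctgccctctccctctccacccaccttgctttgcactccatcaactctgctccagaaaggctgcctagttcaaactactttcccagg
Klk8, chr7:43797327-43797576: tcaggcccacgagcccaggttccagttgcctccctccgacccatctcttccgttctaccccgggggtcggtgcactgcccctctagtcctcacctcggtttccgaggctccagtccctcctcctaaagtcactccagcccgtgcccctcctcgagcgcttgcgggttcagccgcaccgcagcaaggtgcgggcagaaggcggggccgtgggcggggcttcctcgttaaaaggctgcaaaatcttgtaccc
Klk5, chr7:43842019-43842268: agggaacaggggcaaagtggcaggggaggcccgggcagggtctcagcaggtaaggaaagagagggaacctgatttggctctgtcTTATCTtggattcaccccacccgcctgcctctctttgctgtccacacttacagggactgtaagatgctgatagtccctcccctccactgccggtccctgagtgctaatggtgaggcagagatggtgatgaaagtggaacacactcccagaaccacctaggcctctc
The capitals in Klk5 mark a GATA motif, AGATAA read on the minus strand, 166 to 161 bases before the start. It was in 1 of the 10 member promoters and in 9.99% of the 32851 RefSeq promoters when cut to the same length. Searched on both strands, the TATA box (TATAAA, in 12.4% of all promoters), the AP-1 motif (TGANTCA, 6.75%), a grainyhead motif (AACNGGTT, 1.79%), the octamer (ATGCAAAT, 1.60%) and CCAAT (33.8%) were in 0 of the 10. None of the 6 motifs contains another.

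Genes for proteins that kallikreins act on in skin fell in part. Of 12 kallikrein substrates tested, 8 fell and 0 rose, beside 19.6% lower and 16.3% higher over all genes tested. The median of all 12 on the log2 scale was -1.09, beside -0.01 over all genes. With libraries scaled to the pan-epithelial genes it turned to 0.018, and 4 were called lower and 6 higher. Over all genes that scaling gave a median of 1.09, with 3.67% called lower and 83.3% higher. Dsc1, encoding desmocollin 1, fell from 351.7 ± 23.1 to 14.1 ± 3.14 CPM, and Dsg1a, encoding desmoglein 1, from 565.1 ± 31.1 to 28.2 ± 7.13 CPM (SD, n = 3), log2 fold changes of -4.64 ± 0.16 and -4.32 ± 0.18 (SE). Cdsn, encoding corneodesmosin, had a log2 fold change of -1.91 ± 0.45 (SE; edgeR adjusted p = 0.0117), or -1.25 without control replicate 1 (edgeR adjusted p = 0.0265). F2rl1, encoding the receptor PAR2 that KLK5 cleaves, measured 13.4 ± 1.38 and 12.9 ± 0.865 CPM and did not pass (edgeR adjusted p = 0.733). The receptor genes F2r and F2rl3 and the protease gene Pcsk6 did not pass either, and Flg, encoding profilaggrin, was at 0 in every library.

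Proteases upstream of the kallikreins or linked to them went both ways: of 12 tested, 5 rose, 4 fell and 3 did not pass. Over all genes tested, 16.3% were called higher and 19.6% lower. The median of the 12 on the log2 scale was -0.18. With the pan-epithelial scaling 7 were called higher and 2 lower, and the median was 0.93. Over all genes that scaling gave 83.3% higher, 3.67% lower and a median of 1.09. St14, encoding matriptase, which activates kallikrein precursors, rose from 48.6 ± 1.74 to 78.9 ± 4.56 CPM, a log2 fold change of 0.70 ± 0.06, and Htra1 rose by 0.64 ± 0.06 (SE) on the same scale. The membrane serine proteases Tmprss4 and Tmprss13 fell, with log2 fold changes of -5.76 ± 0.15 and -1.71 ± 0.08. Ctsd, encoding cathepsin D and the called gene of this list with the highest CPM, fell by 0.36 on the log2 scale. Plau, Tmprss11b and Tmprss11f did not pass, though Tmprss11b did without cKO replicate 2, at a log2 fold change of -1.77 (edgeR adjusted p = 0.0411).

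Other inhibitors of skin proteases were also mixed. The list holds Cst6, for an inhibitor of cysteine proteases, and Spint2, also a pan-epithelial gene, and both fell. Of 12 tested, 6 fell, 2 rose and 4 did not pass, beside 19.6% lower and 16.3% higher over all genes tested. The median of the 12 on the log2 scale was -0.60. With the pan-epithelial scaling 6 were called higher and 5 lower, and the median was 0.50. Over all genes that scaling gave 83.3% higher, 3.67% lower and a median of 1.09. Serpina12, encoding vaspin, an inhibitor of human KLK7, was at 0 in the cKO and at least 39.6-fold lower against the floor of 3 counts per library. Its control libraries spread widely, at 0.699, 1.60 and 4.78 CPM, and the bound without control replicate 3 is 19.3-fold. Wfdc5 had a log2 fold change of -5.74 ± 0.26 (SE). Serpine2 rose from 56.1 ± 2.25 to 140.9 ± 2.34 CPM, a log2 fold change of 1.33 ± 0.05, and A2m, encoding a broad protease trap, rose by 0.98 ± 0.24 (SE). Spint1, Slpi and Serpinb6a were among those that did not pass. Of the 3 other Spink genes tested, Spink8 was at least 25.7-fold lower against the same floor, or 17.5-fold without control replicate 1. Spink2 and Spink10 did not pass.

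Markers of the layers that make kallikreins fell where they could be tested. Cdsn and Flg are also on the list of substrates, and Flg was at 0 in controls as well as cKO. All 16 granular and spinous markers tested fell, and their median change on the log2 scale was -4.30, larger in size than the change of any member with counts in every library, and -3.19 with the pan-epithelial scaling, where 14 were called lower. Krt10, with the highest CPM, went from 7692 ± 1287 to 114.8 ± 21.0 CPM, and Krt77 had a log2 fold change of -9.64 ± 0.12 (SE). Flg2 was at least 40.8-fold lower against the floor, or 36.5-fold without control replicate 2. All 18 candidate regulators of epidermal differentiation tested fell, with a median of -1.71, beside 19.6% of all genes tested lower. With the pan-epithelial scaling 11 were called lower and 2 higher, with a median of -0.61. Trp63 is on this list and also among the 15 genes used for scaling. Over all genes that scaling gave 3.67% lower, 83.3% higher and a median of 1.09. With upper-quartile scaling 16 were called lower, beside 14.1% of all genes. Rora at -3.24 ± 0.15 and Ehf at -3.22 ± 0.21 changed most, and Klf4, with the highest CPM, was at -1.32 ± 0.10 (SE). Their part in the members' fall was not tested.

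Across the 6 libraries, the genes whose level ran most like that of Klk8 were Klc3, Tead3 and Ints11, with Pearson correlations of 0.9995, 0.9992 and 0.9991 among 12815 genes with a mean log2 CPM of at least 2. For Spink5 they were Calml3, at 0.9992, Vgll3, at 0.9980, and Fance, at 0.9977. The groups separate for all of these, so the correlations largely describe the difference between genotypes, and 281 genes passed 0.99 with Klk8 and 99 with Spink5. Calml3, a calmodulin-like gene of differentiating keratinocytes, had 78.5, 42.8 and 59.6 CPM in controls and 7.85, 6.64 and 9.15 CPM in cKO. Its lowest control was replicate 2, as for Spink5, which its choice by correlation over the same libraries favours. Prmt5 and Krt10 also had their lowest control in replicate 2, while Klk8 and Klk11 had theirs in replicate 3.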

How the data were processed

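Per the labels' protocols, libraries were stranded mRNA libraries from total RNA of back skin with epidermis and dermis mixed. The submitters' processing notes name STAR, StringTie, DESeq2 and the build mm10. No version, annotation release, counting step or use of strand was given in what was used here. Whole-number counts per gene are as the authors deposited them. More genes held 3 counts than 2 in every library, so a count may stand for less than 1 read and floors cover counting error only. DESeq2 log2 values and p-values credited to the authors were computed by them, per the file headers. The deposited Sleuth table's natural log effect and its q-values were read but are not printed.

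The counts were fitted in edgeR 4.0.16 (R 4.3.3) with filterByExpr (19227 genes), TMM, a quasi-likelihood test of genotype alone, and Benjamini-Hochberg adjustment at 0.05. The SE is the log2 fold change divided by the square root of F. The biological coefficient of variation was 15.5%. P-values measure the spread between single-embryo libraries. Ratios to Spink5 used a pseudocount of 0.5 on both counts for the log2 difference, for members with a mean of at least 10 counts, and a two-sided exact permutation test in SciPy 1.17.1. Coordinates and exonic lengths are from GENCODE M21 (GRCm38), which held 98.1% of the identifiers, and promoters are from RefSeq (GRCm38.p6). The members and gene lists were chosen with earlier results of these data known. Named genes are all members, Prmt5, per list every called gene if 5 or fewer and otherwise the 2 largest rises, the 2 largest falls and the most abundant called gene, members that did not pass if 5 or fewer, and the 3 genes most like Klk8 and Spink5. Cdsn, Cst6, Spint2, Trp63 and the neighbours of the cluster are named beyond that rule, after their values were seen. Ctsv was not matched, and some list members are not reported here by name. Alternatives were other scalings, filters, tests and thresholds, a replicate block and leaving out each library.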

Additional observations from a re-analysis of the deposited data

How the results depend on the processing

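The 7 tested members were called lower under RLE and upper-quartile scaling, no filter, DESeq2 1.42.0, limma-voom 3.58.1, an adjusted p of 0.01, the authors' adjusted p and without each library in turn (7 to 7). One exception was scaling to the pan-epithelial genes, with 6 (Klk8 at -0.28, edgeR adjusted p = 0.0660); Prmt5 then had a reversed log2 fold change of 0.041. The other exception was a filter of CPM of at least 1 in 3 libraries, with 6, which removes Klk7. Over all genes, 3767 were lower and 3139 higher, against 706 and 16022 with pan-epithelial scaling, where the median gene moved from -0.01 to 1.09. At an adjusted p of 0.01, 1825 were higher. Of all calls, 54.5% were lower with TMM and 37.6% with upper-quartile scaling. Leaving out 1 library gave 3002 to 3293 lower and 2460 to 2780 higher. The log2 ratio to Spink5 ran from -0.21 to 0.10 for Klk5, with sign changes without control replicate 3 (0.08), cKO replicate 1 (0.10) or cKO replicate 3 (0.02), and from -0.18 to 0.10 for Klk10, with sign changes without control replicate 2 (0.10) or cKO replicate 3 (0.07). With the pan-epithelial sum as denominator, the Klk8 ratio was -0.29 in place of 1.04. For Klk11 the ratio ran from -1.51 without cKO replicate 1 to -0.52 without cKO replicate 2. The cause was not tested for any of these. Same-numbered libraries did not deviate together (correlations -0.079, -0.043 and -0.062), which gave no sign of pairing by number. Deviations from means of 3 libraries balance around 0, so these values cannot exclude a pairing. With the replicate block, 7 members, 3375 genes lower and 2723 higher were called. Depth limits Klk7, with 0 counts in cKO, and Klk14 and Klk6, which could not be compared.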
